A study of Mus musculus with 4 samples.

Results

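Ucp2, Ucp3, Slc25a4, Slc25a5, Slc25a14, Slc25a27 and Slc25a3 encode uncoupling proteins and nucleotide or phosphate carriers of the inner mitochondrial membrane. They were taken by gene symbol from a count table of 38355 mouse genes, and all 7 of 7 members were found and had enough counts to be tested among 14189 genes. The tissue was free wall of the left ventricle, and its total RNA was sequenced from 4 mice that had no treatment, 1 library per mouse. WT 1 was a wild-type male of 35 weeks and WT 2 a wild-type female of 19 weeks. TG 1 was a VSFP2.3 transgenic male of 35 weeks and TG 2 a VSFP2.3 transgenic female of 19 weeks. All 4 mice had the same parents, and each TG mouse with the WT mouse of its sex and age is called a pair here. VSFP2.3 is a fluorescent protein that senses membrane voltage and was targeted to heart muscle cells, per the series title. The stated purpose was to find out whether the transgene is toxic to the heart. No source used here gave the promoter of the transgene or the strain, and transgene transcripts were not analysed here. The set was chosen by symbol with earlier results of these data in view: Ucp2 was chosen by its TG to WT ratios within the pairs, which followed those of immune genes. Those ratios are therefore described without a test.

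The proteins of this family carry small molecules across the inner mitochondrial membrane. Slc25a4 and Slc25a5 encode the ADP/ATP carriers, which bring ADP into the matrix and take out the ATP made there. Slc25a4 is the form of heart and skeletal muscle, and Slc25a5 is the form of dividing and many other cells. Slc25a3 encodes the phosphate carrier, which supplies the other substrate of the ATP synthase. Ucp2 and Ucp3 encode homologues of the brown fat uncoupler Ucp1. Ucp2 is widely expressed and is known for its level in macrophages and lymphocytes, and Ucp3 is a gene of skeletal muscle, heart and brown fat whose transcript responds to fatty acids and fasting. Slc25a14 and Slc25a27 encode further uncoupling protein homologues first described in brain.

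Gene totals were 14158440 to 16762713 counts per library. Levels are given as CPM, counts scaled to the size of the library, with sizes corrected by trimmed means (TMM). A count of 0 allows up to 3 counts, or 0.182 to 0.213 CPM, and this limit covers counting error only. Cardiomyocyte markers were high in each library, with a summed level of 162810 to 242149 CPM over 18 genes. WT 2 stood apart in make-up, with 89.9% of its counts in protein-coding genes against 96.7 to 97.4% in the others. Summed leukocyte markers (35 genes) were at 2620 CPM in WT 1 and 2076 in TG 2 but at 474 in WT 2 and 442 in TG 1. In such bulk tissue, fewer cells of a type and less RNA per cell cannot be told apart.

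The promoter windows of 4 members are shown because Ucp2 and Ucp3 lie side by side and were the members that differed most between libraries, while Slc25a4 and Slc25a5 encode a pair of isoforms with very different levels. Each window runs from 250 bases before to 50 bases after the RefSeq start, 5′ to 3′ on the gene's strand, in GRCm38.p6, and 6 of the 7 members had a match in the table. Capitals mark the motifs searched on both strands. These were TATAA (the TATA box core), GGGCGG (the GC box bound by Sp1), GAGGAA (a core bound by the myeloid factor PU.1), AGGTCA (the core bound by nuclear receptors) and CACGTG (the E-box of the clock factors). No capitals of different motifs overlap.
Ucp2, chr7:100493108-100493407, plus strand: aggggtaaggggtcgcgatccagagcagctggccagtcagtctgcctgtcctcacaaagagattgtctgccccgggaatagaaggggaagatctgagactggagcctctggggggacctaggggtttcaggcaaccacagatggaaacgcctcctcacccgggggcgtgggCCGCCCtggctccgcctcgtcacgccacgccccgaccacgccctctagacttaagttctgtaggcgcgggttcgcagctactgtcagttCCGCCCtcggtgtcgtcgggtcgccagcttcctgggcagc
Ucp3, chr7:100472741-100473040, plus strand: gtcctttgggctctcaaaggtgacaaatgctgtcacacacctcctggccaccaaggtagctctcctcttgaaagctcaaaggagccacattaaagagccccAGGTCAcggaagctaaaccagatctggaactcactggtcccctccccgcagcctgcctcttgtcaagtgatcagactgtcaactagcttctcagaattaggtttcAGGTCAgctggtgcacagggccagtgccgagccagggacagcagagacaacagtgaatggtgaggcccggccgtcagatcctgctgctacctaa
Slc25a4, chr8:46211013-46211312, minus strand: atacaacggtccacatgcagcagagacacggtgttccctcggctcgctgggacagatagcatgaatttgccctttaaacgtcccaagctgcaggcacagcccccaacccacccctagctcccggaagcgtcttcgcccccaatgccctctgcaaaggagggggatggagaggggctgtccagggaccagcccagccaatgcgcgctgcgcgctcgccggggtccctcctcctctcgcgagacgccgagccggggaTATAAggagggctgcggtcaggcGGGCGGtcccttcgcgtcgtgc
Slc25a5, chrX:36795347-36795646, plus strand: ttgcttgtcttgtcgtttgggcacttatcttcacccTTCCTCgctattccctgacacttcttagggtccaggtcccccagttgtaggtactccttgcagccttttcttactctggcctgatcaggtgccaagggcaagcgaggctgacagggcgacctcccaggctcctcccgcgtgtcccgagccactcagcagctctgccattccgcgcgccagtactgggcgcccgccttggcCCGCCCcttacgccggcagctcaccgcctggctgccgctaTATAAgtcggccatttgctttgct

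The Ucp2 window held GGGCGG at 2 places, both read on the opposite strand, and none of the other motifs. The Ucp3 window held AGGTCA at 2 places before the start, and none of the others. The Slc25a4 window held TATAA and GGGCGG at 1 place each. The Slc25a5 window held TATAA at 1 place, and GGGCGG and the PU.1 core at 1 place each on the opposite strand. In the Slc25a4 and Slc25a5 windows TATAA lay after the RefSeq start used for the window. The whole Slc25a5 window lies before the gene start given below, 36795651, so that TATAA lies before it. Where a gene had several windows, that with the lowest coordinate was taken. Among 32851 promoter windows of the same length, 24.9% held TATAA, 35.7% GGGCGG, 28.3% GAGGAA, 16.3% AGGTCA and 7.15% CACGTG. A match is a description of letters and not of a bound site.

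The 7 genes differed widely in level. Slc25a4 ranked highest per kilobase of exon, at 1873 ± 11.9 CPM per kb (SD over the 4 libraries), followed by Slc25a3 at 236 ± 10.6 and Slc25a5 at 70.6 ± 8.39. Ucp2 and Ucp3 came next at 5.18 ± 2.39 and 4.72 ± 3.09 CPM per kb, and these neighbours in the order did not differ beyond their spread. Slc25a14 was at 1.13 ± 0.124 and Slc25a27 at 0.448 ± 0.0887 CPM per kb. The level of Slc25a3 depends on the length used, 5550 bp of exon or 1612 bp for its longest coding transcript. With transcript lengths it was at 777 to 857 CPM per kb, and Slc25a4 at 2278 to 2310. Only 17 tested genes had a higher mean CPM than Slc25a4. Ucp1 had 0 counts in each library, and the testis form of the ADP/ATP carrier, Slc25a31, had 2 to 7 counts.

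**Figure D1:**
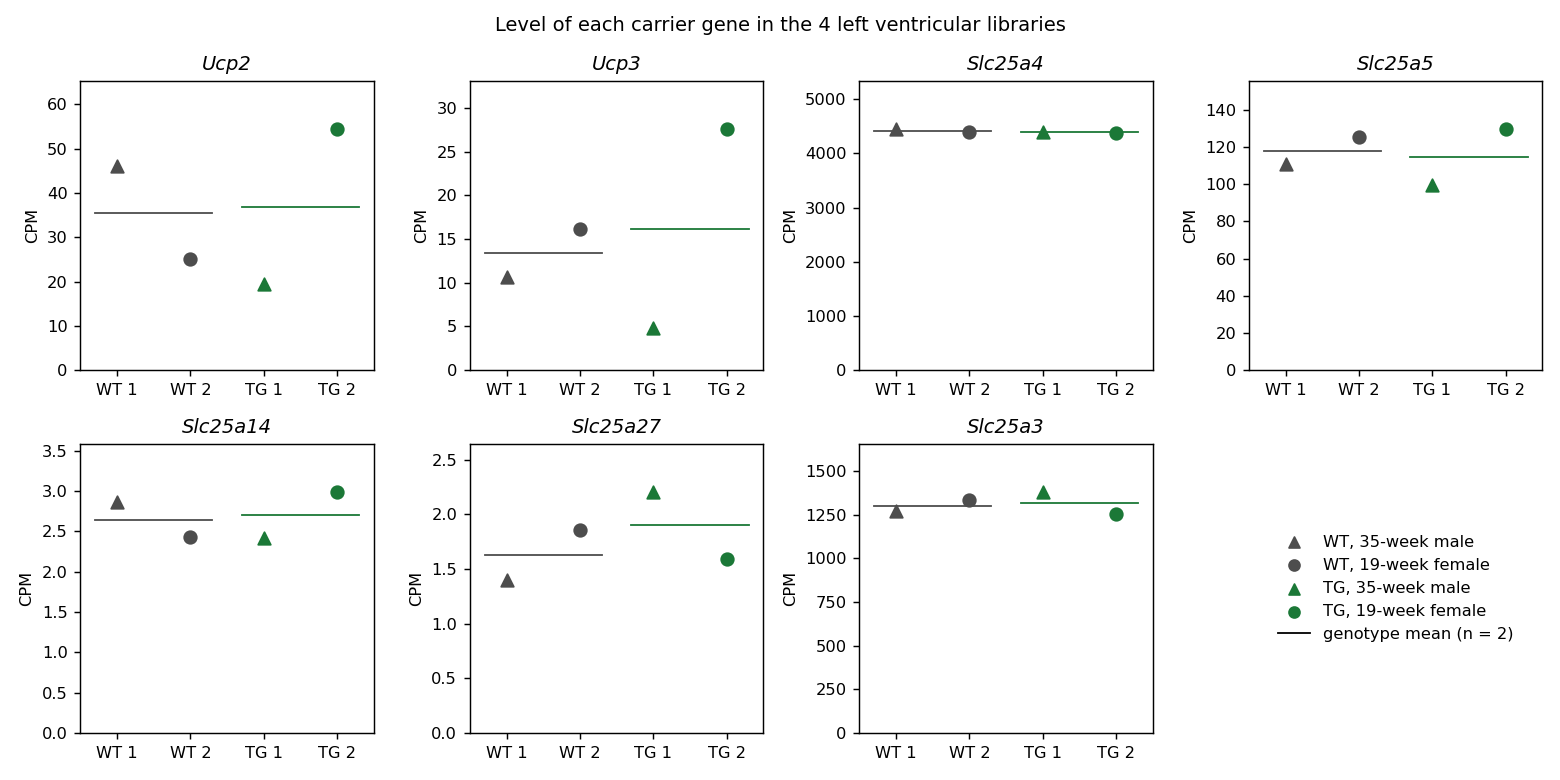
Level in CPM (y axis, from 0) of each of the 7 genes in the 4 libraries (x axis), with triangles for 35-week males, circles for 19-week females, grey for WT, green for TG and lines for the genotype means of 2 mice. Ucp2 is high in WT 1 and TG 2, Ucp3 is highest in TG 2 at 27.6 CPM and lowest in TG 1 at 4.84 CPM, and Slc25a4 lies between 4384 and 4447 CPM in all 4.

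Between TG and WT hearts, none of the 7 genes passed the test. Of 14189 genes, the quasi-likelihood test of edgeR, adjusted by Benjamini and Hochberg, called 0 (0.00%) and left 99 (0.698%) below an unadjusted p of 0.05, while limma-voom called 0 and DESeq2 3 (Atp5g1, Psmc3ip and Gm11814, named after their values were seen). Each of the 7 members had an adjusted p of 1.00 by edgeR. For 0 of 7 members did the TG values lie wholly above or below the WT values, against 21.0% of all tested genes. The members had a median log2 fold change of 0.032 (TG over WT), and all tested genes had one of -0.011. With 2 mice per genotype, p-values measure only the spread among these 4 animals, and a missed threshold does not show that the genotypes are alike.

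The ADP/ATP carrier of heart muscle showed nearly the same level in all 4 hearts. Slc25a4 (ENSMUSG00000031633, chromosome 8, 46206797 to 46211284, in mm10) was at 4447 CPM in WT 1, 4394 in WT 2, 4400 in TG 1 and 4384 in TG 2. The fitted log2 fold change of TG over WT was -0.0094 ± 0.13 (SE, 2 mice per genotype). Its coefficient of variation over the libraries was 0.636%, against a median of 14.4% over all tested genes, and 2 of the 14189 had a smaller one. This steadiness was also present in the authors' deposited normalized signal, at 0.676%, but not without TMM scaling, where the coefficient was 7.38% and the levels were 4719, 4098, 4162 and 4663 CPM in WT 1, WT 2, TG 1 and TG 2.

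Slc25a5, the ADP/ATP carrier of dividing cells (ENSMUSG00000016319, chromosome X, 36795651 to 36798807), was at 111 CPM in WT 1, 125 in WT 2, 99.3 in TG 1 and 129 in TG 2. Its log2 fold change of TG over WT was -0.045 ± 0.19. Both females lay above both males with TMM scaling. Without it WT 1 was at 118 and WT 2 at 117 CPM. The table lists 5 processed copies of Slc25a5 that are at least 90% identical to it, and the most counted of them, Gm5560 (98.3% identical over 887 bp), held 100 to 152 counts against 1396 to 1957 for Slc25a5. Reads of such copies can be split or lost, so the level of Slc25a5 is uncertain.

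Slc25a4 made up nearly all of the summed transcript of these ADP/ATP carriers. Per kilobase of exon its share was 96.6% in WT 1, 96.1% in WT 2, 96.9% in TG 1 and 95.9% in TG 2. Its level per kilobase was 28.1 times that of Slc25a5 in WT 1, 24.6 times in WT 2, 31.0 times in TG 1 and 23.7 times in TG 2. The share was higher in both males than in both females, and the WT and TG ranges overlapped. With the copies added to Slc25a5 the mean share was 96.1% in place of 96.4%.

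The phosphate carrier Slc25a3 (ENSMUSG00000061904, chromosome 10, 91116574 to 91124059) was at 1270 CPM in WT 1, 1333 in WT 2, 1381 in TG 1 and 1253 in TG 2. The genotypes overlapped, and the log2 fold change of TG over WT was 0.017 ± 0.14. Within the pairs, TG 1 to WT 1 stood at 0.12 and TG 2 to WT 2 at -0.089 on the log2 scale, and without TMM scaling both signs turned, to -0.044 and 0.10. Its 1 processed copy in the table above 90% identity, Gm13904, held 84 to 104 counts.

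The brain-type homologues were near the lower end of what these libraries measure. Slc25a14 (ENSMUSG00000031105, chromosome X, 48623413 to 48662294) had 47 counts in WT 1, 38 in WT 2, 34 in TG 1 and 45 in TG 2. Slc25a27 (ENSMUSG00000023912, chromosome 17, 43641891 to 43667214) had 23 in WT 1, 29 in WT 2, 31 in TG 1 and 24 in TG 2. Their log2 fold changes of TG over WT were 0.032 ± 0.33 and 0.22 ± 0.41. Within each pair, the 95% counting intervals of the TG to WT ratio of both genes included 1, so no difference was detectable at this depth.

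The uncoupling protein genes Ucp2 and Ucp3 differed most between the libraries. Ucp2 (ENSMUSG00000033685, chromosome 7, 100493337 to 100502020) was at 46.1 CPM in WT 1, 25.0 in WT 2, 19.3 in TG 1 and 54.4 in TG 2, from 759, 391, 272 and 819 counts. WT 1 and TG 2 were high and WT 2 and TG 1 low, so that each genotype and each sex held 1 high and 1 low heart. Mean CPM was 35.6 ± 14.9 for the WT mice and 36.9 ± 24.8 for the TG mice (SD, n = 2), with a log2 fold change of TG over WT of 0.052 ± 0.56. The direction rested on the fit, with -0.061 when the pair entered as a replicate block. Its exons share 305 bp, or 4.36% of their length, with Dnajb13 on the opposite strand, which stood at 0.0640 to 0.365 CPM.

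Ucp3 (ENSMUSG00000032942, chromosome 7, 100472990 to 100486432) was at 10.6 CPM in WT 1, 16.2 in WT 2, 4.84 in TG 1 and 27.6 in TG 2, from 175, 253, 68 and 415 counts. The highest library was 5.70 times the lowest, against 2.81 times for Ucp2. The transgenic hearts held both the lowest and the highest value, and both females lay above both males. The log2 fold change of TG over WT was 0.28 ± 0.79, and it was -0.14 with the replicate block.

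**Figure D2:**
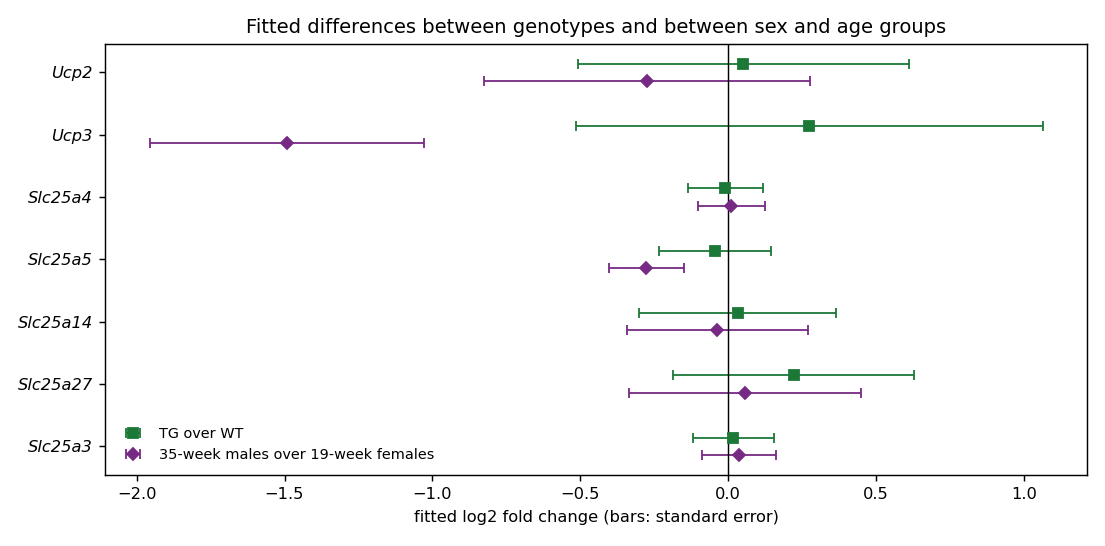
Fitted log2 fold changes (x axis) of the 7 genes (y axis) for TG over WT (squares) and for 35-week males over 19-week females (diamonds), with standard errors as bars. The value of Ucp3 for males over females, -1.49, lies farthest from 0, and the TG over WT bars of all 7 genes cross 0.

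Within the pairs, the TG to WT ratio of both uncoupling protein genes went in opposite directions. TG 1 held 0.419 times the Ucp2 level of WT 1 (log2 ratio -1.25, 95% exact counting interval of the ratio 0.364 to 0.482), and TG 2 held 2.17 times that of WT 2 (log2 1.12, interval 1.93 to 2.46). For Ucp3 the ratios were 0.455 in the male pair (interval 0.338 to 0.605) and 1.70 in the female pair (interval 1.45 to 2.00). Its log2 ratios were -1.12 and 0.76. All these log2 ratios used a prior count of 2 and the ratios none, so they differ slightly. The intervals cover counting error alone, since each arm is 1 mouse. A ratio past 2-fold in either direction was present for 2 of 7 members in the male pair (7.93% of all tested genes) and for 1 of 7 in the female pair (7.01%). Lower past 2-fold in the male pair were the same 2 members, Ucp2 and Ucp3, and 6.07% of all tested genes. Higher past 2-fold in the female pair were 1 member, Ucp2, and 5.33% of all tested genes. A ratio past 2-fold lower in the male pair and past 2-fold higher in the female pair was found for 1 member, Ucp2, and for 3.81% of all tested genes. Since Ucp2 was chosen for this pattern, nothing is read from its share.

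**Figure D3:**
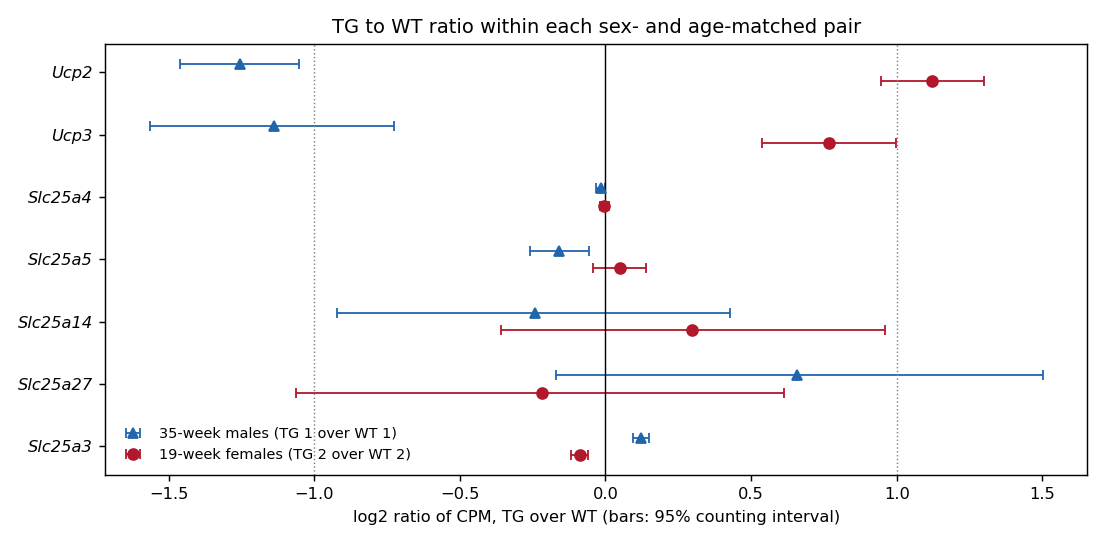
Log2 ratio of TG to WT (x axis) for each of the 7 genes (y axis) in the 35-week males (triangles) and the 19-week females (circles), with 95% counting intervals as bars and dotted lines at 2-fold. Ucp2 lies at -1.25 on the log2 scale in the males and 1.12 in the females, and Slc25a4 lies at -0.015 and -0.0033.

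Ucp2 and Ucp3 were both lowest in TG 1 and highest in TG 2, and they differed in the order of WT 1 and WT 2. Per kilobase of exon, Ucp2 took 66.0% of the sum of Ucp2 and Ucp3 in WT 1 and 64.2% in TG 1, against 40.9% in WT 2 and 47.0% in TG 2. The share of Ucp2 was thus higher in both males than in both females. The levels depend on the length used, since Ucp2 has an exonic length of 6989 bp but a longest coding transcript of 3988 bp. With transcript lengths the mean share of Ucp2 was 61.8% in place of 54.5%.

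The level of Ucp2 was high and low in the same libraries as the summed leukocyte markers. All 33 of 33 tested leukocyte markers were lower in TG than in WT in the male pair and higher in the female pair, as were 31.9% of all tested genes and 4 of the 7 members. Past 2-fold in both pairs the count was 29 of 33, against 3.81% of all tested genes. The full order of Ucp2, lowest in TG 1 and highest in TG 2, was found for 3 of the 33 and 8.02% of all tested genes. Ptprc, the pan-leukocyte phosphatase CD45, was at 73.4 CPM in WT 1, 11.6 in WT 2, 9.53 in TG 1 and 60.3 in TG 2. Cd74, the invariant chain of class II molecules, was at 573, 45.2, 35.1 and 497 CPM in the same order. The spread of Ucp2 over the libraries was smaller than that of Ptprc and Cd74. Ucp2 equalled 1.76% of the summed leukocyte markers in WT 1 and 2.62% in TG 2, against 5.27% in WT 2 and 4.37% in TG 1. The median log2 TG to WT ratio of the tested leukocyte markers was -2.24 in the male and 1.86 in the female pair. The part of leukocyte markers in the level of Ucp2 was not tested. The leukocyte list overlaps the immune genes by which Ucp2 was chosen, so its counts are not independent of that choice.

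The genes whose pattern over the 4 libraries was most like that of Ucp2 were found by the smallest root mean square difference of centred log2 CPM among 12726 named genes. They were Ccr1, a chemokine receptor (difference 0.049), Hist2h2bb, a histone H2B gene (0.063), Cd44, the hyaluronan receptor (0.076), the G protein-coupled receptor gene Gpr35 (0.079), Rinl (0.083), the nuclear pore gene Nup210 (0.092), Kbtbd11 (0.092) and the ubiquitin protease gene Usp45 (0.096). Cd44 was at 39.3 CPM in WT 1, 19.7 in WT 2, 14.2 in TG 1 and 41.8 in TG 2. Ccr1 was at 5.17, 2.75, 2.06 and 6.57 CPM in the same order. Some of these genes had few counts, with 11 to 36 for Gpr35, 24 to 71 for Rinl and 29 to 99 for Ccr1. Counting error thus leaves their order of likeness uncertain. With 4 libraries, likeness of pattern is a description of these hearts.

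Among the 3 genes most like Ucp3 were the matrix glycoprotein gene Tnc (0.24) and Susd3 (0.28). Both were farther from Ucp3 than any of the 8 genes above was from Ucp2. Tnc was at 2.92 CPM in WT 1, 6.91 in WT 2, 1.35 in TG 1 and 8.37 in TG 2. Pdk4, the kinase that shuts down pyruvate dehydrogenase and a known target of PPAR receptors, was at 300 CPM in WT 1, 264 in WT 2, 137 in TG 1 and 406 in TG 2. Like Ucp3, Pdk4 was lowest in TG 1 and highest in TG 2, as were 4 of the 7 members (Ucp2, Ucp3, Slc25a5 and Slc25a14) and 8.02% of all tested genes. For Slc25a14 the order rested on 38 counts in WT 2 and 34 in TG 1. Without TMM scaling and in the deposited signal its lowest library was WT 2. Since Ucp2 was chosen by its pattern, nothing is read from the count of members with this order. In the list of regulators of uncoupling proteins and genes of fatty acid use, 2 of 29 tested genes had this order, Pdk4 and Angptl4. Angptl4, an inhibitor of lipoprotein lipase that is also a PPAR target, was at 4.13, 8.25, 0.854 and 13.5 CPM in WT 1, WT 2, TG 1 and TG 2 and is named after its values were seen.

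The regulators themselves did not have this order. Ppara, the fatty acid receptor, was at 53.9 CPM in WT 1, 108 in WT 2, 81.9 in TG 1 and 84.1 in TG 2. Ppargc1a, the coactivator of mitochondrial genes, was at 128, 298, 167 and 276 CPM in the same order, with both females above both males. Their log2 fold changes of TG over WT were 0.039 ± 0.34 and 0.058 ± 0.47 by edgeR, and neither passed the test.

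**Figure D4:**
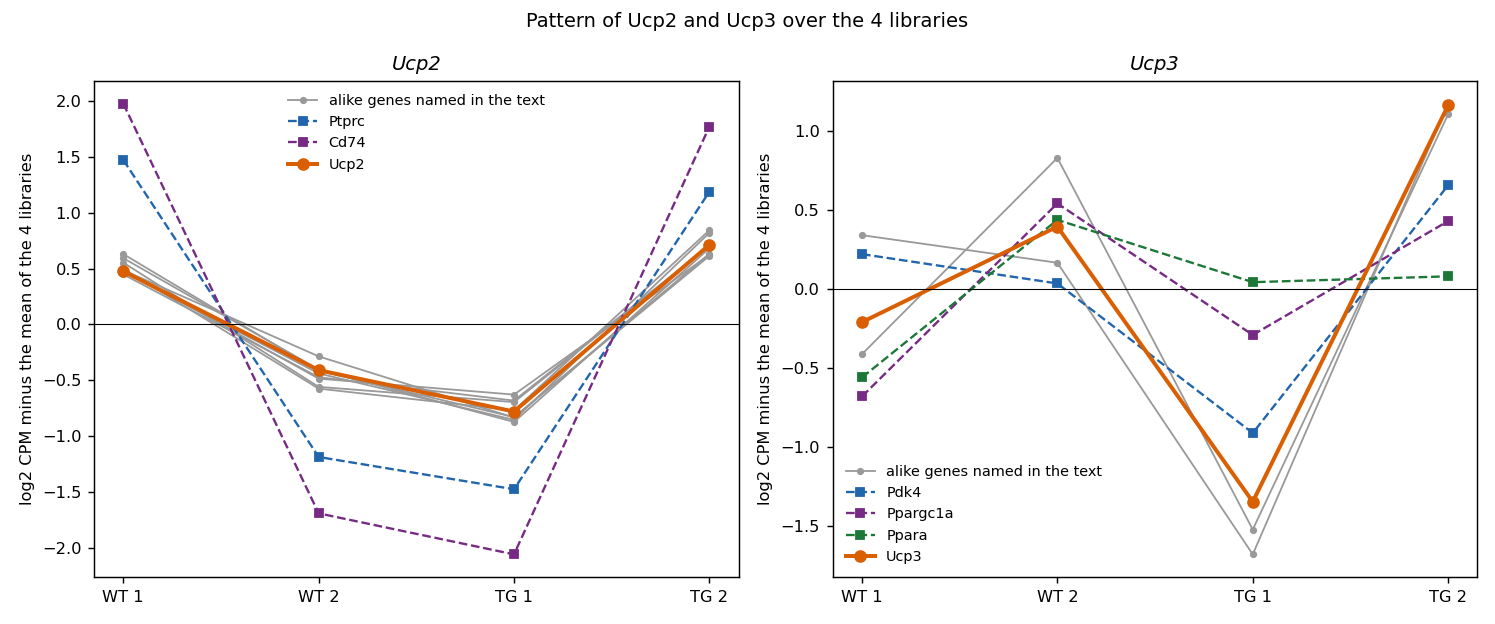
Log2 CPM minus the mean of the 4 libraries (y axis) in each library (x axis) for Ucp2 (left) and Ucp3 (right) in orange, the alike genes named in the text in grey, and fixed genes as dashed lines. Lines join the values of 1 gene and imply no order of the libraries. Ucp2 and its most alike genes are high in WT 1 and TG 2, where Ptprc and Cd74 are farther from 0, and Ucp3 and Pdk4 are lowest in TG 1 and highest in TG 2.

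Tested genes around Ucp2 and Ucp3 stayed within 2-fold in both pairs, as most tested genes did. Of all tested genes, 7.93% were past 2-fold in the male and 7.01% in the female pair. Ucp3 ends 6.91 kb before Ucp2 begins. Of the 11 genes in the table within 200 kb of Ucp2, 7 besides Ucp3 were tested, a stretch chosen after the values were seen. Their log2 TG to WT ratios ran from -0.51 to 0.41 in the male pair and from -0.55 to 0.11 in the female pair.

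For the other members the most alike genes lay within 0.017 of their pattern. Slc25a4 was most like Ndufs6, a subunit of complex I (0.0037), Tmem175 (0.0060) and Fbxo25 (0.0063). Slc25a5 was most like Tubgcp5 (0.0039), the complex I assembly gene Ndufaf4 (0.013) and Hdc (0.017). Slc25a3 was most like Gtf3c4 (0.0071), Slc38a7 (0.0089) and Ankrd27 (0.0090). Slc25a14 was most like Tmem184c (0.0082), Ccdc127 (0.0099) and Pgp (0.011), and Slc25a27 most like Arfgef2 (0.0083), Fto (0.0084) and Ubn2 (0.010). The counts of Slc25a14 and Slc25a27 carry counting errors of 14.6% and 20.9% in WT 1, which is more than these differences. The matched genes carry counting error too, with 1525 to 1793 counts for Ndufs6, 181 to 214 for Tmem175 and 22 to 32 for Hdc. The order of likeness is therefore uncertain for all of these members.

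Between the 35-week males and the 19-week females, 0 of the 7 members passed the test, and 4 of 14189 genes did (0.0282%), the Y-linked Kdm5d, Uty, Ddx3y and Eif2s3y, named after their values were seen and all higher in males. Sex and age cannot be told apart here. Ucp3, which did not pass, was at 7.74 ± 4.10 CPM in males and 21.9 ± 8.04 in females (SD, n = 2), with a log2 fold change of -1.49 ± 0.46, and edgeR gave it an unadjusted p of 0.0258 and a Benjamini-Hochberg adjusted p of 0.999. An unadjusted p below 0.05 was found for 3.62% of all tested genes. The value of Ucp3 lay between -2.17 and -1.04 when each library was left out in turn, and its adjusted p between 0.321 and 1.00 over the alternatives. The X-linked Slc25a5 was at 105 ± 8.16 CPM in males and 127 ± 3.05 in females, with a log2 fold change of -0.28 ± 0.13 and an adjusted p of 0.999 by edgeR. The X-linked Slc25a14 was at 2.64 ± 0.311 and 2.71 ± 0.394 CPM. Males and females did not overlap for 3 of 7 members, Ucp3, Slc25a5 and Slc25a4, against 31.5% of all tested genes. For Slc25a5 and Slc25a4 they overlapped without TMM scaling. For Ucp2 the log2 fold change of males over females was -0.27 ± 0.55, and its sign turned without TG 1 or without TG 2.

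None of the further mitochondrial carriers that were tested had the 2-fold differences of Ucp2. Ucp2 was chosen by those ratios, so nothing is read from this contrast. Of 45 further carriers, 36 were tested, 0 passed the test between TG and WT in either direction, and 20 of 36 had a positive log2 fold change, with a median of 0.018. Their median log2 TG to WT ratio was -0.015 in the male and 0.040 in the female pair. None was lower past 2-fold in the males or higher past 2-fold in the females, against 6.07% and 5.33% of all tested genes. The most abundant were Slc25a11, the oxoglutarate carrier, at 509 to 576 CPM, and the aspartate-glutamate carriers Slc25a12 and Slc25a13 at 219 to 286 and 246 to 291 CPM. Slc25a30, a kidney-type uncoupling protein homologue, was at 9.85 CPM in WT 1, 8.25 in WT 2, 8.46 in TG 1 and 11.4 in TG 2.

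Among the partners of the carriers in energy transfer 0 passed edgeR's test, and 1 ATP synthase gene, Atp5g1, was called by DESeq2. In the list of adenine nucleotide handling 0 of 20 tested genes passed and 8 were positive, with a median log2 fold change of TG over WT of -0.021. Its most abundant genes were the muscle creatine kinase Ckm at 2450 to 2764 CPM, the mitochondrial creatine kinase Ckmt2 at 2240 to 2512 and the outer membrane channel Vdac1 at 704 to 845. Of 18 tested ATP synthase genes 0 passed and 5 were positive, with a median of -0.057, and Atp5b, the catalytic beta subunit, was at 4378 to 4926 CPM, Atp5a1 at 3970 to 4850 and Atp5g3 at 975 to 1011.

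Atp5g1, 1 of the genes for subunit c of the ATP synthase ring, had the lowest p of all tested genes between TG and WT and is named after its values were seen. It was at 36.6 CPM in WT 1, 36.1 in WT 2, 11.03 in TG 1 and 12.02 in TG 2. Both TG hearts lay below both WT hearts, and the log2 TG to WT ratio was -1.72 in the male and -1.58 in the female pair. edgeR gave a log2 fold change of -1.66 ± 0.14, an unadjusted p of 0.000102 and an adjusted p of 1.00, and DESeq2 gave an adjusted p of 1.43e-07. Its processed copy Gm10039 is 99.8% identical to it over 411 bp and held 4409 to 5065 counts, against 155 to 602 for Atp5g1, so the split of reads between them is uncertain. Summed with its copies of at least 90% identity, Atp5g1 was at 333 CPM in WT 1, 318 in WT 2, 345 in TG 1 and 349 in TG 2. The sum was not lower in TG, but Gm10039 held most of it, so it says little about Atp5g1 itself.

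In the list of regulators and fatty acid genes 0 of 29 passed and 18 were positive, with a median log2 fold change of 0.030. Lpl, lipoprotein lipase, was at 3794 to 6734 CPM with 0.48 ± 0.22, the fatty acid transporter Cd36 at 2578 to 2995 with 0.045 ± 0.15, and Hadha of fatty acid oxidation at 1399 to 1605 with -0.022 ± 0.15. Of 21 antioxidant genes 0 passed and 6 were positive, with a median of -0.078. Nnt was at 1052 to 1423 CPM, Sod2, the mitochondrial superoxide dismutase, at 826 to 963 and Prdx3 at 325 to 358. Brown and white adipocyte markers summed to 26.6 to 42.9 CPM, with Ucp1 at 0 counts and the lipid droplet gene Cidea at 18.4 to 22.4 CPM. Of 7 tested adipocyte markers 0 passed and 3 were positive, with a median log2 fold change of -0.37.

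Markers of other cells that hold these carriers were compared in the same way, and none passed between TG and WT or between 35-week males and 19-week females. Cardiomyocyte markers had 9 of 18 positive, with a median log2 fold change of TG over WT of -0.0024, and the alpha myosin gene Myh6 was at 18365 CPM in WT 1, 27275 in WT 2, 32115 in TG 1 and 21134 in TG 2. Cardiac troponin T, Tnnt2, was at 4225, 4019, 4997 and 4122 CPM in the same order. Skeletal muscle markers had 0 of 3 tested genes positive, with a median of -0.69, and summed to 2304 CPM in WT 1, 1085 in WT 2, 1178 in TG 1 and 1521 in TG 2. Nearly all of that sum was Acta1, skeletal alpha actin, which heart also expresses, at 2298, 1076, 1174 and 1514 CPM. Nerve markers had 4 of 8 positive with a median of -0.064, endothelial markers 3 of 10 with -0.029 and fibroblast markers 6 of 10 with 0.081. The leukocyte markers had 5 of 33 positive, with a median of -0.23, and 0 passed.

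**Figure D5:**
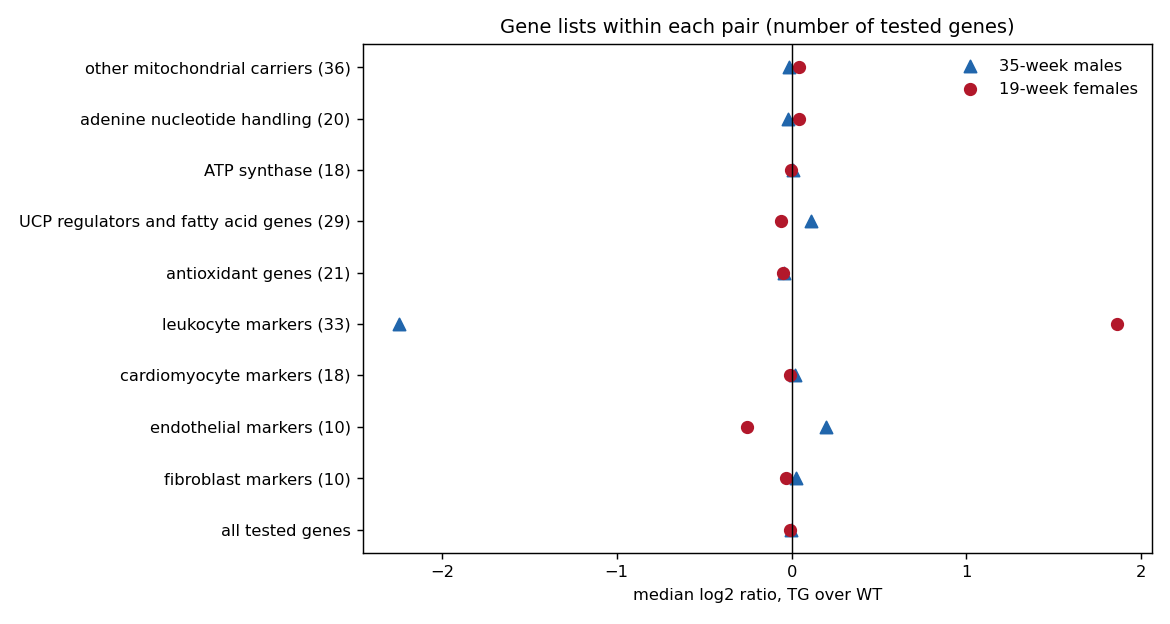
Median log2 TG to WT ratio (x axis) of each gene list (y axis, number of tested genes in brackets) in the 35-week males (triangles) and 19-week females (circles). The leukocyte markers lie at -2.24 and 1.86, and the further mitochondrial carriers lie at -0.015 and 0.040.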

How the data were processed

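Gene counts, not normalized, were deposited by the authors in 1 table. A second table deposited by the authors held a normalized signal, each count over a factor of its library (0.917 to 1.08). The submitters' processing notes name STAR 2.3.0 and the mm10 build, HTSeq 0.6.1, DESeq, CASAVA 1.8.2 and FastQC 0.10.0. No source used here gave the annotation release or the strand setting.

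Counts were tested in R 4.3.3 with edgeR 4.0.16 (filterByExpr with a minimum count of 10, TMM, quasi-likelihood test, Benjamini-Hochberg adjustment, threshold 0.05), in all 4 libraries without a block. DESeq2 1.42.0, limma-voom (limma 3.58.1), other scaling, no filter, a replicate block and leaving out each library were alternatives. The fit was tested on simulated data. Within-pair log2 ratios used a prior count of 2, ratios given with counting intervals used none, and the intervals are exact (Clopper-Pearson). Exonic lengths, positions and overlaps came from GENCODE M21 of the same assembly, copies from BLAST 2.17.0 (at least 200 bp aligned) and promoters from RefSeq, GRCm38.p6. No library duplicated another.

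The members and the 12 gene lists were chosen with earlier results of these data known. The rule for named genes took all members, 11 fixed genes, the 3 most abundant tested genes of each list (given for 5 lists) and the genes most alike in pattern, of which 1 is not reported here.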

Additional observations from a re-analysis of the deposited data

Results flagged for a closer look

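For 6 members the TG to WT log2 ratio had opposite signs in the male and the female pair, a difference that was not tested, with 1 mouse per arm. TG was lower in the male pair and higher in the female pair for 4 of them, and for 31.9% of all tested genes. The share of all tested genes with the reverse signs was not computed. The male value less the female value was -2.37 for Ucp2, -1.88 for Ucp3, -0.51 for Slc25a14, -0.21 for Slc25a5, 0.81 for Slc25a27 and 0.21 for Slc25a3. For Slc25a14 and Slc25a27 both counting intervals included equal levels, for Slc25a5 that of the female pair did (ratio 0.971 to 1.10), and for Slc25a3 the signs turned without TMM scaling.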

How the results depend on the processing

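For TG against WT, edgeR called 0 genes, DESeq2 3, limma-voom 0 and the replicate block 0 (61 below an unadjusted 0.05), and leaving out each library gave 0 to 6, the 6 being without WT 1. Same-numbered mice share sex and age, and the labels state no shared litter. Their deviations from the genotype means correlated at -0.449, and with the pairs crossed 0 genes were called (303 below an unadjusted 0.05). For males against females the count of 4 became 34 by DESeq2, 7 without the filter, 0 with genotype as a term (the replicate block fit) and 0 to 7 leaving out each library (0 without WT 1, WT 2 or TG 1, and 7 without TG 2). No member was called under any of these alternatives.

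The log2 fold change of TG over WT turned for Ucp2 by limma-voom (-0.062) and with the replicate block (-0.061), and for Ucp3 likewise (-0.15 and -0.14). Leaving out each library gave -0.88 to 0.61 for Ucp2, -1.47 to 1.04 for Ucp3, -0.25 to 0.14 for Slc25a5, -0.13 to 0.18 for Slc25a14, -0.027 to 0.44 for Slc25a27 and -0.053 to 0.086 for Slc25a3. For males over females it gave -1.04 to 0.39 for Ucp2, -0.18 to 0.12 for Slc25a14, -0.30 to 0.35 for Slc25a27 and -0.029 to 0.095 for Slc25a3. The causes were not tested.

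Without TMM scaling the within-pair log2 ratio moved beyond counting error to -0.18 for Slc25a4, -0.32 for Slc25a5 and -0.044 for Slc25a3 in the males, and to 1.31 for Ucp2, 0.19 for Slc25a4, 0.24 for Slc25a5 and 0.10 for Slc25a3 in the females. The deposited signal and a prior count of 0.5 moved none of the 14 ratios beyond counting error. Without division by length the mean shares were 97.4% for Slc25a4 and 72.1% for Ucp2.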
